A study of Mus musculus with 18 samples.

Results

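The cells described here are fibroblasts of mouse skin at embryonic day 18.5 (E18.5) chosen on the summed transcripts of Pi16, Clec3b and Dpep1, in most cells of Clec3b. They were 1660 of the 8538 fibroblasts in a single-cell RNA library, or 19.4% (exact binomial 95% interval 18.6 to 20.3%, which covers counting error only), and 1660 of 133710 cells within the same limits in all 18 libraries of the series. A cell entered the comparison with 500 or more detected genes, under 20% of its unique molecular identifiers (UMIs, 1 per captured transcript) from mitochondrial genes, no Epcam UMI and 3 or more UMIs of Col1a1 and Col3a1 together. It was chosen by its own counts: 3 or more UMIs summed over Pi16, Clec3b and Dpep1, more than over a set of upper dermal genes (Cpne5, Stmn2, Inhba, Crabp1 and Ptch1), and more than over a set of Pnoc, Npy, Sfrp4 and C1qtnf3. The other fibroblasts were 2665 cells with more upper dermal UMIs, 1038 cells led by the Pnoc set and 3175 that met no set, called unassigned. The levels of the genes in the rule are therefore a description of how cells were selected.

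The skin lay next to the mammary rudiments of C57BL/6 Lgr5-GFP+ embryos, a knock-in reporter used to find the rudiments, and no other genotype or treatment was compared. Per the study's methods, the tissue came from pooled female embryos, and cells negative for blood and endothelial lineage markers were sorted on CD24 and CD29, beside the E18.5 mammary library that was processed with it. The sort therefore limits which skin cells could be captured. A single library of pooled embryos gives no replicate, so no test between cells was made in skin, and intervals below are 95% intervals of counting error. The other libraries used were mammary glands. They were the E18.5 rudiment, C57BL/6 at postnatal day 5, before puberty at 2.5 weeks and as virgin adults at 10 weeks, and virgin SWISS adults at 10 weeks. FVB/NJ glands came from virgin adults at 10 weeks, pregnancy at days 12.5 and 18.5, lactation at day 10 and after involution. The last was taken at 3 weeks, which the labels count from birth and the study's results section from weaning. Terminal end buds and ducts came from C57BL/6 mice of 5 weeks that carried an E-cadherin-GFP reporter, per the methods.

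The library held 9184 barcodes and 50904927 UMIs, and 9052 cells were within the limits. Although the labels call these cells epidermal, 94.3% of the cells within the limits passed the collagen and Epcam conditions and are called fibroblasts here. The paper itself describes its main skin cluster as rich in fibroblast genes, and another cluster as like epidermal cells of the fetus. An Epcam UMI left out 510 cells and the collagen minimum only 4 more. Cells rich in Schwann transcripts passed it too, so the collagen minimum does not by itself set fibroblasts apart. Transcripts of keratinocyte markers (Krt5, Krt14, Krt10, Krt1 and 5 others) summed to 57.6 CPM (UMIs of a gene scaled to a common total of 1000000) in the Pi16 Clec3b cells and 110.3 CPM in the other fibroblasts. Between 0 and 153 of the skin barcodes recurred in each of the other 17 libraries, and 84 recurred in E18.5 mammary, of which 7 belonged to Pi16 Clec3b cells. The study's own limits on genes, UMIs and mitochondrial share left 9026 cells and the same 1660 members.

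Fibroblasts carrying Pi16 are known from many adult tissues as a matrix-producing population around vessels and in the loose connective tissue under the skin, and they share the surface proteins Dpp4, Ly6a (Sca-1) and Cd34. Pi16 is a secreted peptidase inhibitor, Clec3b encodes tetranectin, a plasminogen-binding lectin, and Dpep1 is a membrane dipeptidase. In developing skin, the upper dermis next to the epidermis responds to WNT signals through the transcription factors Lef1 and Tcf7 and forms the condensates of hair follicles, whereas the deeper dermis gives rise to reticular fibroblasts and adipocyte precursors.

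Clec3b set membership in most cells. It was detected in 98.6% of the 1660 cells and supplied 81.3% of the UMIs counted by the rule, 10947 against 1266 of Pi16 and 1259 of Dpep1, as the rule adds UMIs without regard to how well each gene is captured. Pi16 was detected in 26.6% of the cells and Dpep1 in 42.5%. All 3 genes were seen together in 175 cells, and Clec3b alone of the 3 in 692. The cells carried a median of 7 UMIs of the 3 genes and at most 39. By level, Clec3b stood at 949.6 CPM in the Pi16 Clec3b cells, 139.8 CPM in the Pnoc cells, 100.2 CPM in the unassigned cells and 64.3 CPM in the upper dermal cells. Pi16 stood at 109.8, 12.9, 10.3 and 7.47 CPM in the same order. Dpep1 stood at 109.2, 34.2, 27.2 and 23.5 CPM.

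Free RNA in droplets gives some UMIs to cells that do not make a transcript, so cells rich in Schwann transcripts served as a comparison. They were 396 cells outside the group with 5 or more UMIs summed over a list of Schwann genes that included Sox10, Erbb3, Foxd3 and S100b, and their median depth was 4245 UMIs against 6825 in the Pi16 Clec3b cells. With each cell thinned to 2500 UMIs, Clec3b was detected in 86.1% of the group (unthinned 98.6%), in 13.9% of upper dermal cells and in 13.1% of the Schwann-like cells (unthinned 22.5%). Of the 396 cells, 384 were among the other fibroblasts and 12 were left out of them by an Epcam UMI, so they are a comparison by Schwann transcripts and not a class without collagen. Kcnj8, a potassium channel subunit that the rule did not use, was detected in 18.1% of thinned Pi16 Clec3b cells, 7.81% of Pnoc cells and 1.39% of Schwann-like cells, and the unthinned shares were 34.5%, 16.3% and 3.79%. Lox, the enzyme that crosslinks collagen and elastin, was detected in 55.1% of the group and 50.3% of the Pnoc cells after thinning.

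**Figure D1:**
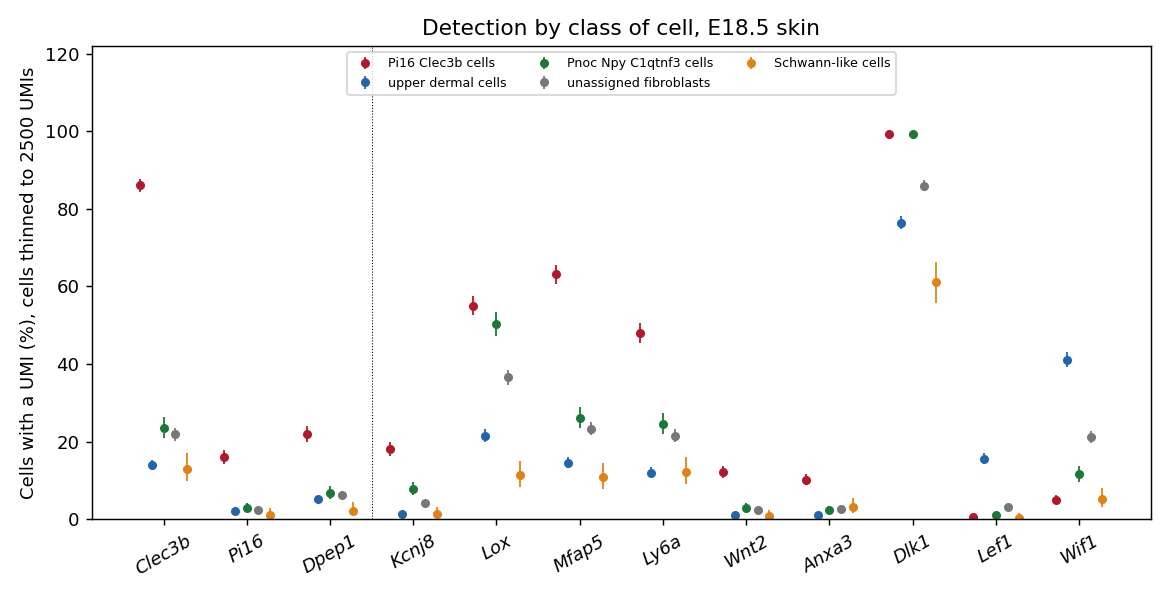
Share of cells with at least 1 UMI (vertical axis, percent, cells thinned to 2500 UMIs) for 12 genes in 5 classes of cell of E18.5 skin, with exact binomial 95% intervals. The 3 genes left of the dotted line chose the Pi16 Clec3b cells, in which Clec3b reached 86.1% and Pi16 15.9%; to its right, Mfap5 reached 63.1% in the group and at most 26.2% elsewhere.

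Cells just inside and just outside the threshold had similar depth, a median of 5561 and 5448 UMIs. The 306 cells with exactly 2 UMIs of the 3 genes, which met the other conditions, had 249.1 CPM of Mfap5, 248.5 CPM of Ly6a and 28.1 CPM of Kcnj8. The 245 cells with exactly 3 UMIs had 291.9 CPM of Mfap5, 289.8 CPM of Ly6a and 40.8 CPM of Kcnj8. A further 291 fibroblasts with 3 or more UMIs were held back because another set matched or exceeded them.

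Promoter sequence is shown for the rule gene Pi16 and for Wnt2 and Kcnj8, a secreted ligand and a channel gene that were among the most raised outside the rule. The windows are the 250 bases before the RefSeq start in GRCm38.p6, 5′ to 3′ on the strand of the gene. Pi16 lies at chr17:29318632-29318881 on the plus strand, Wnt2 at chr6:18030446-18030695 on the minus strand and Kcnj8 at chr6:142571615-142571864 on the minus strand.
Pi16: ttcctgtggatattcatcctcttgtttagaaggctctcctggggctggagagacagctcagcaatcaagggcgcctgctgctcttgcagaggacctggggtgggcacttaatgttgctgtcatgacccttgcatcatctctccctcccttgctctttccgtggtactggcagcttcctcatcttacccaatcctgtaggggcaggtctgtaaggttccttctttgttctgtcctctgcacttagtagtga
Wnt2: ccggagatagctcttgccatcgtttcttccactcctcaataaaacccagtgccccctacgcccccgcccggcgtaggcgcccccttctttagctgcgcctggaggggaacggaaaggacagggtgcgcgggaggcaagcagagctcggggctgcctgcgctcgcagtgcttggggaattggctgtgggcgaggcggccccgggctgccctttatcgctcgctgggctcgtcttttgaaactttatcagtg
Kcnj8: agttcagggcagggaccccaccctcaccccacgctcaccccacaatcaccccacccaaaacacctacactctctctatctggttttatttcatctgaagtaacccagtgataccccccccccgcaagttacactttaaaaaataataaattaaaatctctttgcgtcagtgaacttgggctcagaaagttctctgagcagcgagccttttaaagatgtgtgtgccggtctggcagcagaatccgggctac
2 motifs, each searched on both strands, were absent from these windows: CTTTGAT, the core bound by LEF1 and TCF factors, and the palindromic motif of EBF factors. The first was in the windows of 10 of 212 genes higher by 2-fold or more in the Pi16 Clec3b cells (4.72%), 16 of 589 lower genes (2.72%) and 2.81% of all 8891 genes compared that had a window. The second was in 3 of the 212 (1.42%), 13 of the 589 (2.21%) and 1.1% of all compared. Windows were at hand for 19 of the 33 named and rule genes.

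Compared with the other fibroblasts, the Pi16 Clec3b cells had 19 of 28 genes of a Pi16 fibroblast list and 9 of 21 complement and cytokine genes higher by 2-fold or more, and 15 of 29 WNT genes lower. Of 11459 genes with 100 or more UMIs over all fibroblasts and outside the rule, 292 were higher by 2-fold or more (2.55%) and 821 were lower by 2-fold or more (7.16%). The median log2 ratio over all these genes was -0.17, so lists below are read against that value. Their counts of genes past 2-fold are to be read against the shares of 2.55% and 7.16%. Scaling the 2 sums by TMM, which centres the bulk of genes, shifted every log2 ratio by 0.16 and gave 410 higher and 675 lower genes.

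Among genes detected in 10% or more of the cells of the higher class, the 15 with the highest ratios outside the rule included secreted and membrane proteins. Akr1c18 and Akr1c14 had higher ratios (23.1 and 9.29) but were detected in 8.13% and 6.02% of the cells. Pcolce2, which enhances procollagen processing, stood at 18.3 CPM against 2.37 CPM in the other fibroblasts, a ratio of 7.72 (5.97 to 10.1). Anxa3, a calcium-dependent membrane-binding protein, stood at 53.2 against 8.32 CPM (6.39-fold, 5.55 to 7.36). The WNT ligand Wnt2 stood at 62.1 against 10.0 CPM (6.20-fold, 5.45 to 7.06). These 3 genes were each higher by 2-fold or more in the group than in the upper dermal, the Pnoc and the unassigned cells. Mfap5, a microfibril protein, stood at 715.7 CPM against 123.9 CPM (5.78-fold, 5.57 to 5.99) and Ly6a at 523.8 against 129.05 CPM (4.06-fold, 3.91 to 4.22). Kcnj8 stood at 87.7 CPM in the group, 43.7 in Pnoc cells, 20.1 in unassigned cells and 6.55 in upper dermal cells, and at 19.2 CPM over all other fibroblasts (4.58-fold, 4.15 to 5.05). Tmeff2, a transmembrane protein with follistatin-like domains, stood at 139.7 against 26.4 CPM. The remaining 8 were Ces2g, Adgrd1, Sqor, Acta1, Mylpf, Cgref1, Pi15 and Steap3, with ratios from 4.10 to 5.82. Cgref1 and Pi15 were under 2-fold against the Pnoc cells alone, with ratios of 1.89 and 1.87.

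Acta1 and Mylpf are muscle genes, and their transcripts were unevenly spread. Acta1 was detected in 235 of the 1660 cells, and the 10 cells with the most held 239 of its 686 UMIs. Of other muscle genes, Myl1 stood at 28.5 against 5.47 CPM, Sln at 14.4 against 2.43 CPM, Tnnc2 at 19.4 against 3.56 CPM and Ckm at 9.54 against 1.44 CPM. Actc1 stood at 8.41 against 5.56 CPM (1.51-fold, 1.17 to 1.94) and Des at 32.7 against 27.4 CPM (1.19-fold, 1.06 to 1.35). Ttn, with 8 UMIs in the group, had an interval that held 1 (0.631-fold, 0.255 to 1.37). The defining genes of muscle precursors were near 0 in both classes, from 2, 5 and 1 UMIs of Myod1, Myog and Pax7 in the group. Myod1 stood at 0.1735 against 1.27 CPM (0.137-fold, 0.0161 to 0.523) and Myog at 0.434 against 1.58 CPM (0.274-fold, 0.0858 to 0.679). Pax7 stood at 0.0867 against 0.339 CPM (0.256-fold, 0.00599 to 1.73). Summed over the skeletal muscle marker list, of which 7 of 7 genes were detected, the level was 69.7 CPM in the group and 22.3 CPM in the other fibroblasts, of which Acta1 made up 59.5 and 11.9 CPM. The part of free RNA or adhering cells in this was not tested.

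The lowest ratios belonged to WNT-responsive and peripheral nerve genes. Lef1 stood at 3.73 CPM in the group and 34.9 CPM in the other fibroblasts (0.107-fold, 0.0770 to 0.145), and at 70.0 CPM in upper dermal cells. Tcf7, its relative, stood at 4.16 against 29.5 CPM (0.141-fold, 0.103 to 0.189), and at 59.2 CPM in upper dermal cells. Both were at a level near that of the group in the Pnoc cells, Lef1 at 4.89 CPM and Tcf7 at 3.70 CPM, so their low ratios rest on the upper dermal cells, which the rule kept out of the group, and on the unassigned cells, at 14.4 and 12.4 CPM. Wif1, a secreted WNT inhibitor, stood at 24.2 against 177.25 CPM (0.137-fold, 0.121 to 0.154), and Rspo3, a secreted amplifier of WNT signals, at 23.9 against 153.35 CPM (0.156-fold, 0.138 to 0.176). Trps1, a transcription factor of hair follicle mesenchyme, stood at 38.8 against 232.3 CPM. Tnmd, a tendon gene, stood at 12.1 against 78.7 CPM. It stood at 250.95 CPM in the Pnoc cells, which the rule kept out of the group, and at 18.2 CPM in upper dermal cells (0.668-fold). The myelin gene Mbp stood at 13.0 against 106.8 CPM; 384 of the other fibroblasts and 9 of the Pi16 Clec3b cells carried 5 or more Schwann UMIs, and without those cells the ratio of Mbp was 0.582. A further 7 (Runx3, Mpped2, Col23a1, Ndnf, B4galnt1, Prex2 and Hs3st6) had ratios from 0.153 to 0.174. Of these, Runx3, Prex2 and Hs3st6 were not lower than in the Pnoc cells, with ratios of 1.41, 1.22 and 1.32 against them. Trps1, Col23a1, Ndnf and B4galnt1 were lower than in the Pnoc cells by less than 2-fold, with ratios of 0.716, 0.715, 0.859 and 0.611.

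**Figure D2:**
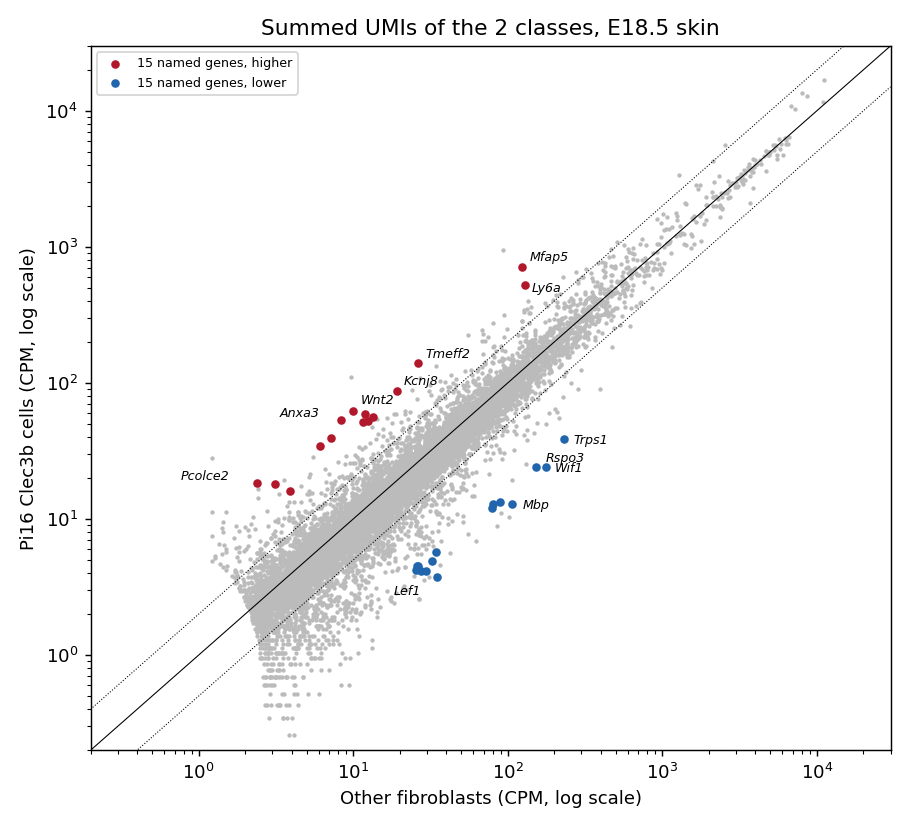
CPM in the Pi16 Clec3b cells (vertical, log scale) against the other fibroblasts of E18.5 skin (horizontal, log scale), 1 grey point per gene, with the 15 genes of highest ratio in red and the 15 of lowest ratio in blue among those detected in 10% or more of the cells of the higher class. The solid line marks equal levels and the dotted lines 2-fold; Mfap5 lies at 715.7 against 123.9 CPM and Trps1 at 38.8 against 232.3 CPM.

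The counts depended on which fibroblasts stood on the other side. Against the upper dermal cells, 600 of 10165 genes were higher by 2-fold or more (5.9%) and 881 were lower (8.67%). Against the Pnoc cells, 194 of 9162 were higher (2.12%) and 268 were lower (2.93%), and against the unassigned cells 182 of 10252 were higher (1.78%) and 505 were lower (4.93%). By this count the Pnoc cells were the nearest class on the lower side and the unassigned cells on the higher side. The rule counts UMIs whatever the depth of a cell, and depth differed between the classes. The median was 6825 UMIs in the group, 6378.5 in Pnoc, 4811 in upper dermal and 4250 in unassigned cells. The part of depth in this order was not tested. However, 344 of the 3175 unassigned cells were Schwann-like, against 12 of the 1038 Pnoc cells and 9 of the 1660 members. The part of these cells in the 505 lower genes was not tested. Higher than each of the 3 classes by 2-fold or more were 95 genes, among them Mfap5, Ly6a, Fbn1, Thbs1, Tppp3, Cd34, Lpl, Tnxb and Smoc2, and 159 were lower than each.

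Genes reported for Pi16 fibroblasts across adult tissues were the list with the highest median. Of 28 such genes compared, 19 were higher by 2-fold or more and none was lower, with a median log2 ratio of 1.47. Beyond Anxa3, Mfap5 and Ly6a they included Tnxb, a matrix tenascin, at 225.1 against 55.65 CPM (4.05-fold), Has1, a hyaluronan synthase, at 54.3 against 14.3 CPM (3.80-fold), Igfbp6 at 277.3 against 80.8 CPM (3.43-fold) and the guidance ligand Sema3c at 202.8 against 68.1 CPM (2.98-fold). The surface peptidase Dpp4 stood at 33.8 against 11.97 CPM (2.83-fold) and Cd34 at 287.6 against 122.9 CPM (2.34-fold). Limch1 and Uchl1 were the 2 members with a ratio under 1, at 0.824 and 0.738.

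Against all other fibroblasts, matrix lists had medians above that of all genes, from -0.04 for collagens to 0.44 for collagen processing. Single members were past 2-fold in both directions. Against the unassigned cells alone the collagen median was -0.20, below the -0.16 of all genes. Among 19 elastic fibre genes, 5 were higher (Mfap5, Efemp1, Emilin2, Fbn1 and Ltbp2), and Mgp, an inhibitor of calcification, was lower at 111.9 against 232.2 CPM. The median was 0.34. Of the higher ones, Mfap5, Efemp1, Emilin2 and Fbn1 are also on the list of Pi16 fibroblast genes. Among 21 genes of collagen processing, Pcolce2, Loxl1 (2.34-fold) and Pcolce (2.15-fold) were higher and none was lower, with a median of 0.44. Lox itself stood at 395.0 against 209.4 CPM (1.89-fold, 1.82 to 1.96). Of 23 collagens outside the rule, Col5a3 (3.92-fold), Col6a6 (3.61-fold) and Col14a1 (2.34-fold) were higher, and 9 were lower. The lower ones included Col7a1 of the anchoring fibrils under the epidermis at 37.8 against 133.4 CPM, and Col26a1 at 14.7 against 60.3 CPM. Other matrix glycoproteins gave 5 higher of 22 (Tnxb, Smoc2, Thbs1, Vcan and Thbs2) and 3 lower (Thbs4, Cilp and Matn4). Prelp alone was higher and Fmod alone lower of 10 small leucine-rich proteoglycans. Of 24 proteases and inhibitors, 5 were higher, among them Serping1, Htra3, Plat and Serpinf1, and Timp3 and Mmp11 were lower. Over all genes 2.55% were higher and 7.16% lower, so the 2 lower members of these 24 are not read as a result.

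Complement and cytokine genes had a median log2 ratio of 0.50 against the unassigned cells alone. Against all other fibroblasts it was 0.83, beside 0.82 for the adipogenic list, and no order is read between them. Of 21 compared, 9 were higher: the complement genes C4b, C1s1, C1ra, Cd55 and Serping1, the cytokines Il6 and Il33, the receptor Il1r1 and the chemokine Cxcl12. Il6 stood at 59.4 against 18.9 CPM (3.15-fold, 2.83 to 3.51) and Cxcl12 at 407.1 against 197.5 CPM (2.06-fold, 1.99 to 2.14). Cd59a and Cxcl13 were lower. Among 24 growth factor genes, Fgf7 at 34.0 against 10.9 CPM (3.13-fold), Vegfd at 115.1 against 42.7 CPM (2.70-fold) and Gas6 (2.15-fold) were higher, while Fgfr2 and Pdgfa were lower. Igfbp6 was higher and Igfbp2 (0.321-fold) lower among 13 genes of the IGF axis. Over all genes 7.16% were lower, so the lower members of the growth factor and IGF lists are not read as a result.

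Lipid genes of the deeper dermis also leaned higher. The rule kept upper dermal cells out of the group, and the part of this in the direction was not tested. The list median was 0.45 against the unassigned cells alone and 0.53 with a minimum of 20 UMIs, beside 0.82 in the main comparison with all other fibroblasts. Of 13 adipogenic and lower dermis genes, Lpl, a lipoprotein lipase, stood at 246.7 against 67.8 CPM (3.64-fold), Ebf2 at 55.3 against 16.65 CPM (3.32-fold), Fndc1 at 163.5 against 69.4 CPM (2.36-fold) and Dlk1, which restrains adipocyte differentiation, at 5567 against 2558 CPM (2.18-fold); Fabp4 was higher too (2.07-fold), none was lower and the median was 0.82. Dlk1 in the group lay close to its 5197 CPM in the Pnoc cells and above its 1125 CPM in upper dermal cells. Among 21 genes of retinoid and lipid handling, Rbp4, Ptgs1, Aldh1a3 and Rarres2 were higher and the retinoic acid genes Crabp2, Cyp26b1 and Dhrs3 were lower, with Hsd11b1. Of 7 potassium channel genes, Kcnj8 was higher and Abcc9, its partner subunit, stood at 19.4 against 9.91 CPM (1.96-fold, 1.65 to 2.33), while Kcnk2 and Kcnma1 were lower.

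WNT genes were lower as a list. Of 29 compared, Wnt2 alone was higher and 15 were lower, with a median log2 ratio of -1.26. Those 15 included the target Axin2 at 6.16 against 24.6 CPM (0.250-fold) and the feedback inhibitors Nkd1 (0.324-fold), Nkd2 (0.231-fold) and Notum. The secreted antagonists of WNT signals Dkk1 (0.257-fold) and Frzb (0.166-fold) were also among them. Tcf4, a helix-loop-helix factor on the list that is not a partner of beta-catenin, stood at 260.3 against 622.3 CPM (0.418-fold). The receptors Fzd2, Fzd7 and Ror1 had ratios from 1.14 to 1.51. Upper dermis genes gave none higher and 9 lower of 15 (median -1.63). Dermal condensate genes gave none higher and 7 lower of 13 (median -1.43), such as Sox2 at 2.08 against 14.3 CPM and Sox18 at 1.04 against 10.8 CPM. Lef1, Axin2, Apcdd1, Nkd1, Nkd2 and Dkk2 are on both the WNT and the upper dermis list. Rspo3 and Dkk1 are on both the WNT and the condensate list, so these lists are not separate results. The rule required fewer upper dermal UMIs, so the direction of these lists follows in part from how cells were chosen. Against the unassigned cells alone, which met none of the 3 sets, the WNT median was -0.86, the upper dermis median -1.03 and the dermal condensate median -0.71. With 5 CPM added to both sides, the WNT median was -0.80 and the dermal condensate median -0.71, and with a minimum of 500 UMIs the latter was -0.89.

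Among BMP and TGF-beta genes, 2 of 32 compared were higher and 5 lower, beside 2.55% and 7.16% of all genes. The BMP antagonist Chrdl1 (3.58-fold) and the ligand Gdf10 (2.11-fold) were higher, and the ligands Bmp4 and Tgfb1, the antagonists Nog and Grem1, and Id1, a target of BMP signals, were lower, with a median of -0.21; Id1 stood at 184.3 against 471.6 CPM. Of 33 adhesion and guidance genes, 6 were higher (Cadm3, Sema3c, Dpp4, Anpep, Cd34 and Epha3) and 6 lower (Cadm1, Itga8, Ntng1, Mme, Cdh2 and Nrp2). Of 32 dermal transcription factors, Ebf2, Ebf3 and Klf2 were higher and Barx2, Meox1 and Foxd1 lower. Of 12 contractile genes, none was higher and 5 were lower, led by Acta2 at 17.9 against 60.8 CPM and Tagln at 6.94 against 36.9 CPM.

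**Figure D3:**
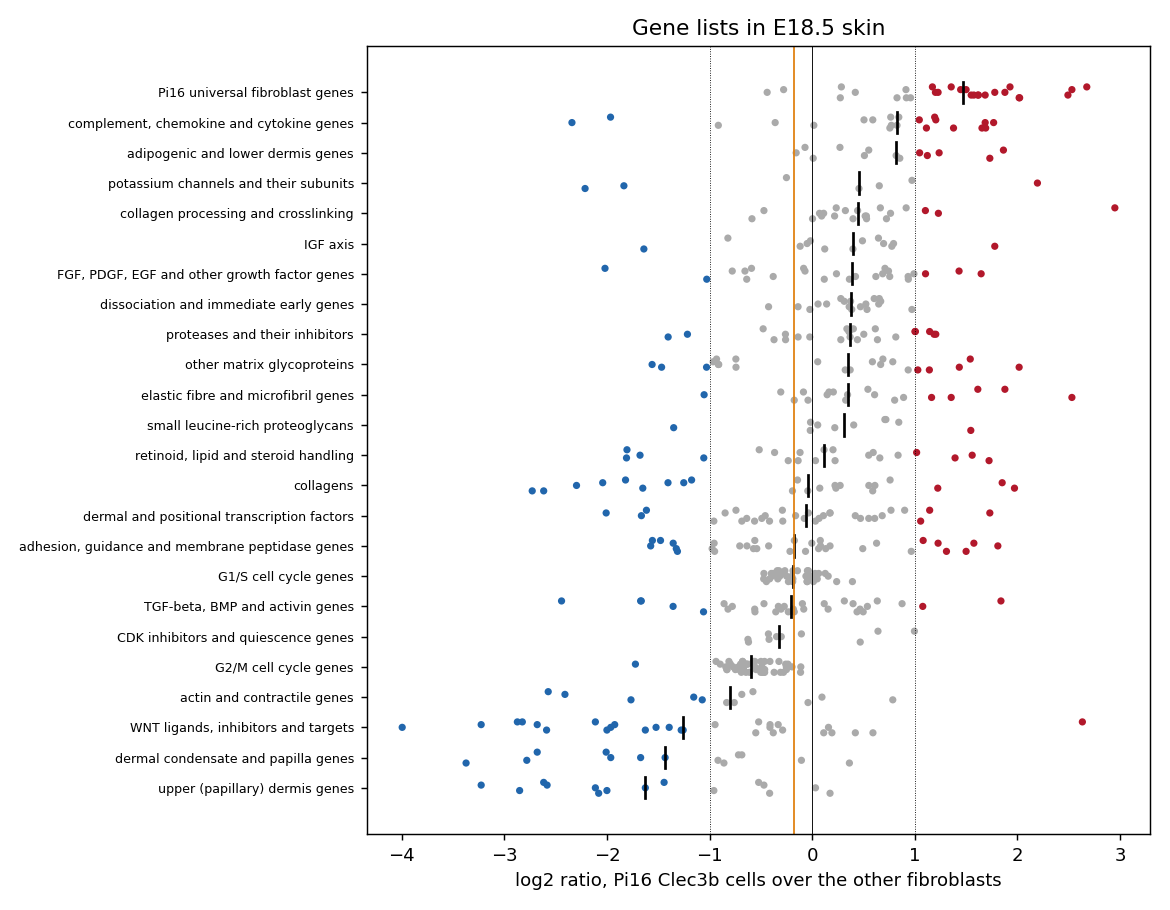
The log2 ratio of each compared gene (points; horizontal axis) in 24 gene lists (rows), Pi16 Clec3b cells over the other fibroblasts of E18.5 skin, red at 2-fold higher or more and blue at 2-fold lower or more. Black bars are list medians, from 1.47 for Pi16 fibroblast genes to -1.63 for upper dermis genes, and the orange line is the median of all genes, -0.17.

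Genes of the G2/M list leaned lower, and those of the G1/S list lay near all genes. All 52 genes of the G2/M list had a ratio under 1, 1 of them by 2-fold or more, with a median of -0.59. Top2a stood at 135.9 against 222.4 CPM (0.611-fold, 0.578 to 0.645) and Mki67 at 40.9 against 56.6 CPM (0.722-fold, 0.652 to 0.799). No G1/S gene of 38 passed 2-fold, and their median was -0.19, close to that of all genes. With cells thinned to 2500 UMIs, 83.8% of the Pi16 Clec3b cells (81.9 to 85.6%) and 85.9% of the other fibroblasts (85.0 to 86.8%) had 2 or more G2/M UMIs, a threshold that most cells of every class passed. With no thinning the order turned, 97.2% against 94.5%. Cdkn1c, an inhibitor of cyclin-dependent kinases, stood at 4245 against 2128 CPM (1.99-fold, 1.97 to 2.02), whereas Cdkn1b (0.744-fold) and Cdkn1a (0.930-fold) were below 1. Of 18 immediate early and dissociation genes none passed 2-fold, 15 had a ratio over 1 and the median was 0.38; Atf3 stood at 757.6 against 386.4 CPM.

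Marker lists of other cell types lay on both sides. Of 6 compared genes each, 5 Schwann genes and 5 tendon genes were lower by 2-fold or more, and S100b was 1.89-fold higher. Endothelial markers summed to 21.7 CPM in the group and 34.2 CPM in the other fibroblasts, erythroid markers to 3.12 and 3.25 CPM, and immune markers to 2.52 and 1.95 CPM, with 2 of the immune genes at 0. Adipocyte markers summed to 83.4 CPM in the group against 50.3 CPM. Mural markers summed to 589.7 against 512.6 CPM, most of it Ndufa4l2, and Acta2, Mcam and Cox4i2 were lower. Of the genes on which cells were sorted, Cd24a stood at 268.1 against 536.7 CPM (0.499-fold, 0.481 to 0.519) and Itgb1, which encodes CD29, at 159.97 against 180.5 CPM. The reporter gene Lgr5 stood at 21.7 against 13.0 CPM (1.67-fold, 1.43 to 1.95).

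Levels of genes outside the rule followed the UMIs of the 3 rule genes in thinned cells. The steps count thinned UMIs and are not the threshold of the rule, so members lay in each of them. Over 4667 thinned fibroblasts with 0 such UMIs, 1479 with 1, 584 with 2, 603 with 3 to 4 and 324 with 5 or more, Mfap5 stood at 101.7, 211.8, 417.8, 719.7 and 1349 CPM. Of these cells 140, 282, 340, 533 and 317 were Pi16 Clec3b cells, so their share differs between steps. Kcnj8 stood at 11.5, 28.7, 79.5, 105.5 and 164.2 CPM over the same steps. Wnt2 stood at 8.06, 11.9, 26.7, 68.3 and 139.5 CPM. Lef1 stood at 41.3, 25.4, 7.53, 1.99 and 1.23 CPM, and its last 2 steps held 3 UMIs and 1 UMI. Dlk1 (2250 to 6198 CPM) and Cdkn1c (1846 to 4602.5 CPM) were higher at each step. The same cells gave both axes, so this is a description with no test.

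**Figure D4:**
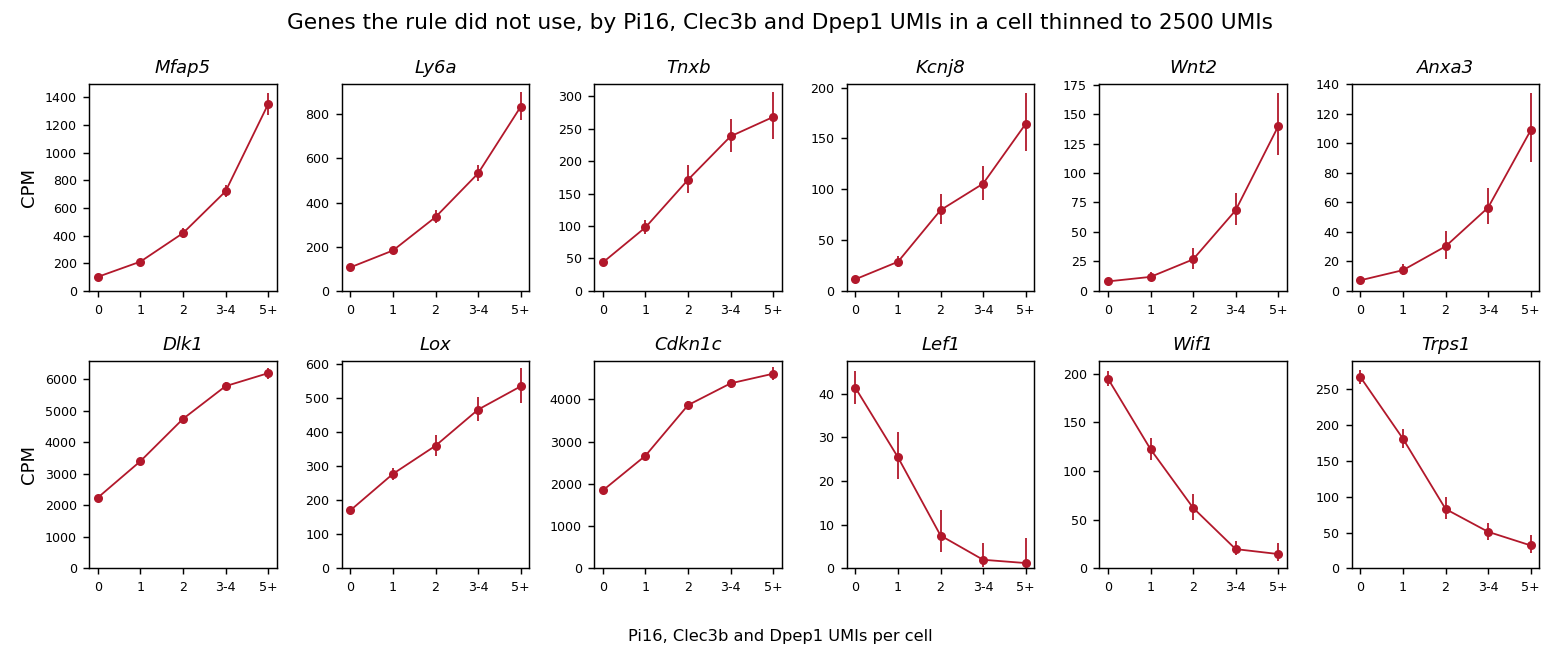
CPM (vertical axis, from 0) of 12 genes that the rule did not use in fibroblasts of E18.5 skin thinned to 2500 UMIs, grouped by their UMIs of Pi16, Clec3b and Dpep1 (horizontal axis), with exact 95% counting intervals. Mfap5 went from 101.7 to 1349 CPM and Wif1 from 195.0 to 14.8 CPM between the first and the last step.

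Within the group, cells with a Pi16 UMI differed from those without. The 441 cells with Pi16 had a median of 7015 UMIs and the 1219 without had 6713. Of 7669 genes with 100 or more UMIs in the group, 83 were higher by 2-fold or more with Pi16 (1.08%) and 83 were lower (1.08%). Akr1c18, a steroid-metabolizing reductase, stood at 88.6 CPM with Pi16 and 5.14 CPM without (17.2-fold, 12.5 to 24.4), and at 1.21 CPM in the other fibroblasts. Wnt2 stood at 139.8 against 32.7 CPM (4.27-fold), Anxa3 at 113.9 against 30.2 CPM (3.77-fold), Sema3c at 394.5 against 130.4 CPM (3.03-fold), Dpp4 at 65.49 against 21.9 CPM (2.99-fold) and Mfap5 at 1357 against 473.5 CPM (2.86-fold). Of the 292 genes higher in the group as a whole, 226 were compared inside it, or 2.95% of the 7669. They supplied 43 of the 83 genes higher with Pi16 (51.8%) and 23 of the 83 lower (27.7%), and the 43 were 19.03% of the 226. The same cells and a gene of the rule gave both comparisons, so these shares are a description. Col4a1, a basement membrane collagen, stood at 87.3 CPM with Pi16 and 246.9 CPM without, Apoe at 86.7 against 255.4 CPM and Acta1 at 25.9 against 72.2 CPM. Because detection of Pi16 is sparse, some cells without a UMI also carry its transcript.

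The group was also split by Dpep1. Its 705 cells and the 955 without it differed by 2-fold or more in 11 of the same 7669 genes that were higher with Dpep1 (0.143%) and 44 that were lower (0.574%). The prostaglandin receptor gene Ptgfr stood at 51.2 against 18.3 CPM (2.81-fold, 2.25 to 3.52), Lgr5 at 33.1 against 12.4 CPM (2.66-fold, 2.02 to 3.52) and Eln, which encodes elastin, at 1245 against 516.3 CPM (2.41-fold, 2.31 to 2.52). The lowest ratios were those of Ren1, which encodes renin, at 3.67 against 30.7 CPM (0.120-fold, 0.0705 to 0.192), and of the muscle genes Sln at 4.45 against 22.5 CPM, Myl1 at 10.4 against 43.3 CPM and Acta1 at 24.55 against 87.97 CPM. Pi16 and Dpep1 both chose the cells, so their joint detection is not read here.

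The same rule was applied to the other 17 libraries. In the E18.5 mammary library it took 48 of 403 fibroblasts (11.9%, 8.91 to 15.5%), and in the postnatal day 5 and pre-puberty libraries 2 of 325 and 2 of 381. In adult C57BL/6 it took 530 of 568 (93.3%, 90.9 to 95.2%), in adult SWISS 359 of 383 (93.7%) and in lactation D6 308 of 362 (85.1%). Most cells of these libraries that passed the collagen rule met it. The 3 adult FVB/NJ libraries gave 118 of 143 in A10 (82.5%, 75.3 to 88.4%), 17 of 18 in D12 (94.4%, 72.7 to 99.9%) and 21 of 41 in P7 (51.2%, 35.1 to 67.1%). It took between 23.5% and 72.7% in the 4 pregnancy libraries, which held 15 to 26 fibroblasts each. Cells were not thinned here, and the share depends on depth: in skin it was 11.4% with the rule applied to thinned cells. The median depth of the other fibroblasts was 1827.5 UMIs against 4363 in adult C57BL/6, 2019 against 3897 in adult SWISS, 2274 against 4598 in adult FVB/NJ A10, 1355 against 2714 in adult FVB/NJ P7, and 2360.5 against 2415.5 in lactation D6. Stage, strain, sort and processing differ between libraries and cannot be told apart here. The terminal end bud and duct libraries held 2 fibroblasts each.

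**Figure D5:**
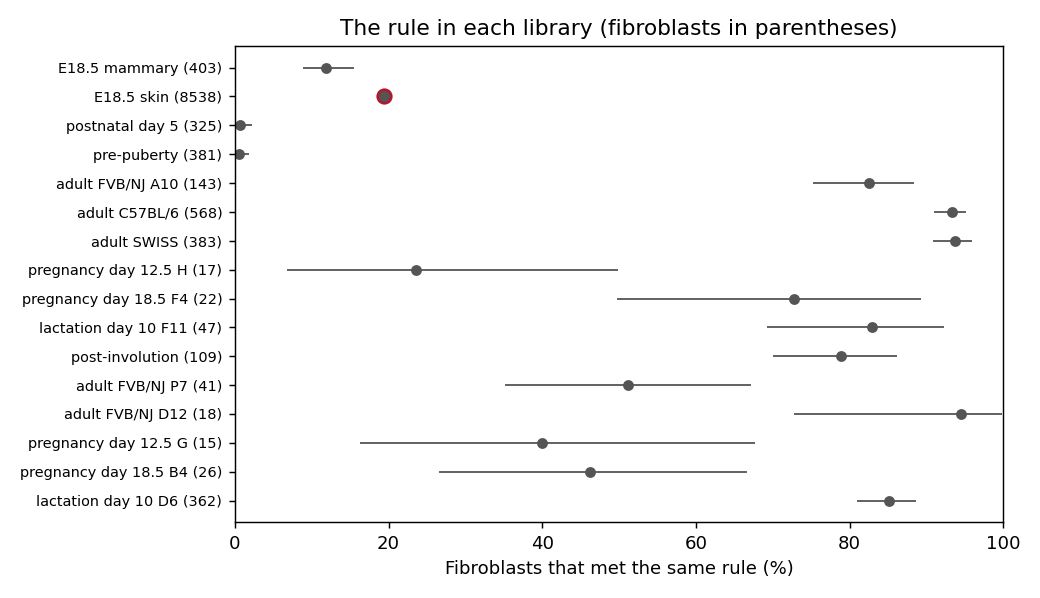
Share of fibroblasts that met the rule (horizontal axis, percent) in the 16 libraries with 10 or more fibroblasts, with exact binomial 95% intervals and the number of fibroblasts in parentheses. E18.5 skin, in red, lies at 19.4% and the E18.5 mammary library at 11.9%, below adult C57BL/6 and SWISS at 93.3% and 93.7%.

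The E18.5 mammary library was the nearest in age, and its cells came from the same set of embryos per the methods. With 48 cells against 355, 7156 genes had 20 or more UMIs in its fibroblasts, of which 327 were higher by 2-fold or more (4.57%) and 1156 lower (16.2%). Of the 138 compared there that were higher by 2-fold or more in skin, 73 were higher (52.9%) and 1 was lower. Of the 325 that were lower in skin, 201 were lower (61.8%) and 1 was higher. Mfap5 stood at 588.7 against 58.8 CPM in mammary fibroblasts (10.0-fold, 7.59 to 13.3), Ly6a at 531.8 against 35.4 CPM (15.003-fold, 10.8 to 21.2) and Kcnj8 at 101.5 against 28.4 CPM (3.58-fold, 2.08 to 6.05). Of the 355 other mammary fibroblasts, 14 were upper dermal and 2 were Pnoc cells, so the contrast was not the one made in skin. The other mammary fibroblasts carried Schwann transcripts, with Mbp at 441.7 CPM against 8.12 CPM in the cells that met the rule. The part of these transcripts in the counts was not tested.

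Over 7 libraries other than skin with 20 or more cells of both classes, a paired edgeR fit with the library as a block tested 2847 genes. At a Benjamini-Hochberg adjusted p under 0.05, 334 were higher in the cells that met the rule (11.7%) and 203 were lower (7.13%). The classes in each library were chosen by the same 3 genes, which were left out of the fit. The other fibroblasts were not made up as in skin, where 2665 were upper dermal and 1038 Pnoc cells. In adult C57BL/6 these classes were 3 and 1 of 38 cells, and in E18.5 mammary 14 and 2 of 355. A direction shared with skin is therefore not a repeat of the same contrast. Of the 292 genes higher in skin, 105 could be tested: 67 were called higher (63.8%) and 4 lower (3.81%). Of the 821 lower in skin, 49 could be tested: 27 were called lower (55.1%) and 2 higher (4.08%). Of the 30 named genes 11 were tested, and all 11 were called in the direction seen in skin. Of these, Pi15, Steap3 and Prex2 lost their call without adult C57BL/6 and without the replicate block. The filter of the fit could be passed on the UMIs of 1 class alone. Tmeff2 held 1, 3 and 1 UMIs in the other fibroblasts of adult FVB/NJ A10, C57BL/6 and SWISS. For such genes a call of higher was largely set in advance. The same limit bears on the 67 genes called higher and on the list of Pi16 fibroblast genes below. The counts of called genes were 234 higher and 286 lower without TMM scaling, 114 and 71 without the block, and 212 and 134 without adult FVB/NJ A10. Ly6a differed by 2.92 on the log2 scale (edgeR adjusted p = 2.23e-05), Anxa3 by 3.07 (edgeR adjusted p = 2.63e-05), Pcolce2 by 3.28 (edgeR adjusted p = 0.000439), Mfap5 by 2.59 (edgeR adjusted p = 0.000498) and Wnt2 by 1.96 (edgeR adjusted p = 0.00177). In the other fibroblasts of these libraries, transcripts of adipocytes and Schwann cells were abundant: Fabp4 averaged 4048 CPM against 349 CPM in the cells that met the rule, and the part of such cells in the calls was not tested. The list of Pi16 fibroblast genes had 26 of 27 tested members called higher and none lower.

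Fabp4 and G0s2, both of adipocytes, were higher in skin but lower in the other libraries, by -4.56 (edgeR adjusted p = 0.00133) and -3.07 (edgeR adjusted p = 0.0111) on the log2 scale, and Thbs1 and Rhob were the others called against skin. Dmkn and Lsp1, lower in skin, were called higher. Lox differed by -0.22 (edgeR adjusted p = 0.789). Kcnj8 was under the filter of that fit. Its level in the cells that met the rule was 15.7 CPM in adult C57BL/6, 23.7 in adult FVB/NJ A10 and 36.3 in adult SWISS, against 11.9, 27.7 and 39.5 CPM in the other fibroblasts of the same libraries, levels that rest on 1 to 3 UMIs. It was lower in the cells that met the rule in lactation D6, at 14.6 against 44.7 CPM (0.327-fold, 0.127 to 0.879), and stood at 45.1 against 91.0 CPM after involution (0.495-fold, 0.173 to 1.73) and at 52.7 against 148.9 CPM in adult FVB/NJ P7 (0.354-fold, 0.0550 to 1.82), so the direction seen in E18.5 skin and mammary was not seen in these 3 libraries. Dlk1 stood at 4571 CPM in the mammary cells of E18.5 that met the rule and between 0 and 0.449 CPM in those of 4 of the 5 adult, the post-involution and the 2 lactation libraries. Adult FVB/NJ D12, with 17 cells that met the rule and 1 that did not, was not used for these levels. In contrast Akr1c18 stood in the cells that met the rule at 65.0 CPM in E18.5 mammary and at 111.15 to 369.0 CPM in the same adult and post-involution libraries. It stood at 143.9 CPM in lactation D6 and at 34.6 CPM, from 3 UMIs, in lactation F11. The other fibroblasts of these 8 libraries held at most 1 UMI of it.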

How the data were processed

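Single cells were captured with 10x Chromium 3′ v2 chemistry, and the deposited files hold UMI counts per gene and cell, which the authors made with Cell Ranger on mm10 (version 3.1.0 in the submitters' processing notes, and 3.0.2 or 3.1.0 per the file headers). The members and gene lists were chosen with earlier results of these data known. UMIs were summed per class and scaled to CPM, ratios carry exact conditional 95% intervals, and a gene was compared with 100 or more UMIs over all fibroblasts. A count of 0 was set to a floor of 3 counts in a ratio. Named genes were the 15 of highest and the 15 of lowest ratio outside the rule with UMIs in 10% or more of cells of the higher class, and members of the lists. Genes named in the splits by Pi16 and Dpep1, in the comparison of libraries and among muscle genes include some chosen after their values were seen. Tags come from 3′ ends, so a level compares classes for a gene and not genes with each other. Reads of overlapping gene models on the same strand (Anxa3, Tmeff2, Lef1, Tcf7, Mpped2, Rspo3, Trps1 and Dpep1) may be divided between them. Cells were thinned to 2500 UMIs for detection shares, the steps of rule UMIs and the G2/M shares; the shares of fibroblasts meeting the rule across libraries were not thinned.

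Across 7 other libraries, UMIs summed per library and class were fitted with edgeR 4.0.16 (quasi-likelihood, TMM, library as a block, since both classes of a library come from the same tissue) in R 4.3.3, with Benjamini-Hochberg adjustment. On simulated counts for that comparison (3180 genes, 176 of them changed 4-fold), 100% of the changed genes were recovered, with 4 false calls. The changed genes were drawn from abundant genes, with 1 dispersion for every gene and the same mean profile in every library. The share recovered therefore does not measure the sensitivity of the real fit. DESeq2 1.42.0 was an alternative. Scrublet (in scanpy 1.11.5) called 1 of 9052 cells, so it had not worked and doublets stayed in. Python 3.11.15 and scipy 1.17.1 were used. The classes of single cells rest on sparse counts, and intervals cover counting error only. Values of some genes are not reported here.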

Additional observations from a re-analysis of the deposited data

How the results depend on the processing

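The share of skin fibroblasts that met the rule was 23.0% with 2 or more UMIs, 13.9% with 5 or more, 17.2% with Pi16 and Clec3b alone and 11.4% with the rule applied to thinned cells, against 19.4%. Genes past 2-fold, 292 higher and 821 lower, numbered 490 and 1536 with a minimum of 20 UMIs, 149 and 313 with 500 UMIs, and 127 and 241 with 5 CPM added to both sides. Without Schwann-like cells, an alternative chosen after seeing the data, they numbered 298 and 680. The shares with G2/M UMIs, in the group and in the other fibroblasts, were 97.2% and 94.5% with no thinning, 96.2% and 96.7% with 1 or more UMIs, 66.4% and 71.3% with 3 or more, 62.0% and 67.4% at 1500 UMIs and 96.4% and 96.4% at 4000 UMIs. In the paired fit over other libraries (334 higher, 203 lower), leaving out the replicate block gave 114 and 71, a minimum of 1 UMI gave 750 and 641, and no TMM scaling gave 234 and 286. Leaving out a library gave 212 to 326 higher and 134 to 206 lower, with the lowest counts, 212 and 134, without adult FVB/NJ A10. DESeq2 called 353 and 195. Pi15, Steap3 and Prex2 each lost their call without adult C57BL/6 and without the replicate block. The order of the G2/M shares turned with no thinning, and the larger count in the paired fit turned from higher to lower without TMM scaling; no ratio or fold change of a named gene changed sign. The cause of the shifts was not tested. A minimum of 50 cells per class left 1 library and gave no test, and the doublet caller had not worked.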
